A study of Rattus norvegicus and Mus musculus with 251 samples.

Results

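Nr4a1, Nr4a2 and Nr4a3 are the 3 genes of the Nr4a family of nuclear receptors, described here in the brains of mice that drank morphine or saline. They were taken by symbol from the mouse table of raw read counts, as 3 of 46078 gene rows, and all 3 passed the low-count filter in both brain regions. All animals were C57BL/6J, an inbred mouse strain. Each animal drank a saline or a morphine solution, and small tissue punches of prefrontal cortex (PFC) and nucleus accumbens (NAc) were taken for total RNA sequencing. The 4 treatments are saline, chronic morphine, 24 h after morphine and 2 weeks after morphine. The PFC had 6 saline, 8 chronic, 9 24 h and 7 2-week libraries, and the NAc had 7, 8, 9 and 8. Each group held 3 to 5 males and 3 or 4 females. The labels give the mice neither an age nor a dose. They name the cell type as neuron, although a punch of tissue also holds glia and vessels. The 189 rat libraries of the series were not analysed here.

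Nr4a receptors are transcription factors whose activity is set mainly by how much of them is made, since their ligand pocket is closed. Their genes are early response genes: in neurons, calcium and cAMP signals acting through CREB and MEF2 switch them on within a short time and without new protein synthesis. The proteins bind DNA as single molecules or pairs, and Nr4a1 and Nr4a2 can also pair with retinoid X receptors. In the brain Nr4a1 (Nur77) is known as an activity-induced gene of cortex and striatum, Nr4a2 (Nurr1) as a factor that midbrain dopamine neurons, claustrum and deep cortical layers need, and Nr4a3 (NOR-1) as a relative induced beside Nr4a1. Opioid receptors lower cAMP, and long exposure and withdrawal change that pathway.

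In the GENCODE M21 annotation of GRCm38, Nr4a1 (ENSMUSG00000023034) lies on the plus strand at chr15:101254269-101274795. Nr4a2 (ENSMUSG00000026826) lies on the minus strand at chr2:57106830-57124003, and Nr4a3 (ENSMUSG00000028341) on the plus strand at chr4:48045153-48086447. All 3 are protein-coding and no annotated gene overlaps any of them, so their reads do not depend on how overlaps or strands were counted. The stretch of 168 coding bases that encodes the zinc fingers is shown because the members are more alike there than over the whole coding sequence. Even there each pair differed in 27 to 41 bases, and whether any read was shared between members was not tested. The stretch lies in exons 3 and 4 of 8 of each transcript, and capitals mark the bases that are not identical in all 3 members.
Nr4a1: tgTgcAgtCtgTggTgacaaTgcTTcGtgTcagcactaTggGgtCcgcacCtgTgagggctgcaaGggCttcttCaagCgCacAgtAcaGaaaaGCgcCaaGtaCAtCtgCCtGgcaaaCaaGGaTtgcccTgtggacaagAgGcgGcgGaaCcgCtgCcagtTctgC
Nr4a2: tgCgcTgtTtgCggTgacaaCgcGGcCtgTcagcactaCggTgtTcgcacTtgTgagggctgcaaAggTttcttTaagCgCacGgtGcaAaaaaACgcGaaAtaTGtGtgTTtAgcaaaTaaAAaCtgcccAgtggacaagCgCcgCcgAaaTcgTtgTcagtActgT
Nr4a3: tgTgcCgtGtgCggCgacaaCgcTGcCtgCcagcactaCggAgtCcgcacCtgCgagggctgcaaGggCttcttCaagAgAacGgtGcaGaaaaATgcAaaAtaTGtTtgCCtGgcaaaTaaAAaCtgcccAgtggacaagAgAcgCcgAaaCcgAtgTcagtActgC

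Of these 168 bases, 121 (72.0%) were the same in all 3 members. Nr4a2 and Nr4a3 were the closest pair, with 83.9% identical bases and 0 of 56 codons that change the residue. Nr4a1 differed from each of them in 5 residues, with 75.6% identical bases against Nr4a2 and 80.4% against Nr4a3. Over the whole coding sequence the identity was lower, at 56.0% to 61.2%.

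A promoter sequence from RefSeq was at hand for the rat orthologues of 2 members, on the GRCr8 build, and it is shown for Nr4a1 because CREB binds the motif it holds. The 250 bases upstream of the rat Nr4a1 start, at chr7:134259888-134260137 on the plus strand, hold 4 copies of the CRE core TGACG on either strand, in capitals (as printed, its reverse complement CGTCA).
Rat Nr4a1: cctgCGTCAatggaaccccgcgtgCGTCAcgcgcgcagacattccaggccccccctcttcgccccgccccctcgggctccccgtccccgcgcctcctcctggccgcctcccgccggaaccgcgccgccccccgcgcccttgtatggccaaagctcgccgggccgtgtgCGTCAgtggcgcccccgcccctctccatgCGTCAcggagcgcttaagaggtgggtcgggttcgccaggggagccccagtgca
Of 33469 rat promoters of this length, 18.2% held at least 1 copy of TGACG and 0.173% held 4 or more. The rat Nr4a2 window held 1 copy. Neither window held the full CRE TGACGTCA (1.59% of promoters, and each such site also counts as TGACG), the Nr4a monomer site AAAGGTCA (1.24%), the AP-1 site TGANTCA (6.34%), TATAAA (12.9%), a CArG box (1.5%) or a MEF2 site (2.96%). The GC box GGGCGG (30.5% of promoters) occurred 3 times in the Nr4a1 window. These matches describe rat sequence, whereas all counts below are from mice.

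PFC totals ran from 5182601 to 41532464 counts (median 29999922) and NAc totals from 22387525 to 43963295 (median 32159518). The lowest is a 2-week female PFC library, number 10, and the next lowest PFC library held 24936879 counts. Slc17a7, a cortical glutamate transporter, was at 10.48 to 11.85 log2 CPM in every PFC library. Drd1, a dopamine receptor of striatal neurons, ran from 3.18 to 8.18 in the NAc, where Slc17a7 reached 9.22 in 1 library. The chronic mouse with number 27 is labelled female, but its Y-linked Ddx3y was at 5.72 log2 CPM in PFC and 6.28 in NAc, within the range of the males, and its Xist was at -3.96 and 0.13, against 5.99 to 8.95 in the other females. A processed pseudogene, Gm10263, was either on or off, and its state follows the groups: on in every chronic library and in every saline male, off in every saline female and every 2-week library. At 24 h it was on in 4 of 4 females and in 3 of 5 males, in both regions. Chronic and saline males are therefore alike in this state, while chronic and saline females differ in it and cannot be told apart from it. The labels do not say that same-numbered PFC and NAc libraries come from 1 animal, nor that libraries of a group come from separate animals, so p-values measure the spread between libraries.

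Without drug, Nr4a1 was the most abundant member in both regions and every member was lower in the NAc. Levels between genes are compared per length, as CPM (counts scaled to a fixed library total) per kilobase of exon. In saline PFC the median was 99.6 for Nr4a1, 12.6 for Nr4a3 and 11.9 for Nr4a2, and the libraries of Nr4a3 (8.56 to 19.6) and Nr4a2 (8.05 to 18.8) covered nearly the same range. In saline NAc the medians were 16.9 for Nr4a1, 5.08 for Nr4a3 and 1.28 for Nr4a2. Here the ranges of the 3 members did not all separate, since Nr4a1 (5.99 to 34.9) and Nr4a3 (2.35 to 6.36) met, while Nr4a2 (0.565 to 1.92) lay below both. On the scale of log2 fold change, NAc minus PFC was -2.31 ± 0.31 (SE) for Nr4a1, -3.43 ± 0.36 for Nr4a2 and -1.55 ± 0.29 for Nr4a3. The edgeR adjusted p was 2.34e-08, 5.64e-11 and 2.43e-05. All 3 members passed, in a comparison in which 35.8% of the 19266 genes tested passed (18.4% lower in NAc). In bulk tissue, fewer cells that hold a transcript and less of it per cell cannot be told apart.

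Under chronic morphine, Nr4a1 and Nr4a3 fell in the PFC and Nr4a2 did not pass the test. Levels below are log2 CPM, with the lowest, median and highest library of each group. Nr4a1 was at 8.02, 8.45 and 8.76 in saline, 5.98, 6.21 and 7.32 under chronic morphine, 6.08, 7.16 and 8.04 at 24 h, and 7.96, 8.33 and 8.55 at 2 weeks. Every chronic library lay below every saline library. At 24 h the highest library reached into the saline range and the rest lay below it, and at 2 weeks 1 library lay just below that range and the others within it. In CPM the medians were 349.6, 74.1, 143 and 322 in that order.

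The Nr4a1 log2 fold change against saline, averaged over the sexes, was -1.92 (95% interval -2.30 to -1.53, edgeR adjusted p = 2.12e-07) under chronic morphine. In this comparison 2 of the 3 members passed, where 0.417% of 17966 genes passed and 0.312% passed as lower. At 24 h the fold change was -1.19 (-1.55 to -0.83, edgeR adjusted p = 0.00049), where 0.0779% of genes passed (0.0724% as lower), and with no sex term it was -1.14 and did not pass (adjusted p = 0.0505). At 2 weeks it was -0.12 (-0.50 to 0.26, edgeR adjusted p = 0.954), where 0.00557% passed. From chronic morphine to 2 weeks Nr4a1 rose by 1.80 ± 0.18 (SE, edgeR adjusted p = 5.1e-07), where 0.813% of genes passed (0.495% as higher). From 24 h to 2 weeks it rose by 1.07 ± 0.17 (edgeR adjusted p = 0.00101), where 0.15% passed (0.0835% as higher). The step from chronic morphine to 24 h, 0.72 ± 0.17, did not pass (edgeR adjusted p = 0.149, where 0.0278% passed), but with 1 chronic female (number 26, the highest chronic library) left out it was 0.94 (adjusted p = 0.0112). DESeq2 gave that step an adjusted p of 0.0178. Of the Nr4a1 steps, saline and 2 weeks are thus neighbours that do not differ beyond their spread, and whether chronic morphine and 24 h differ depends on the tool and on 1 library.

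**Figure D1:**
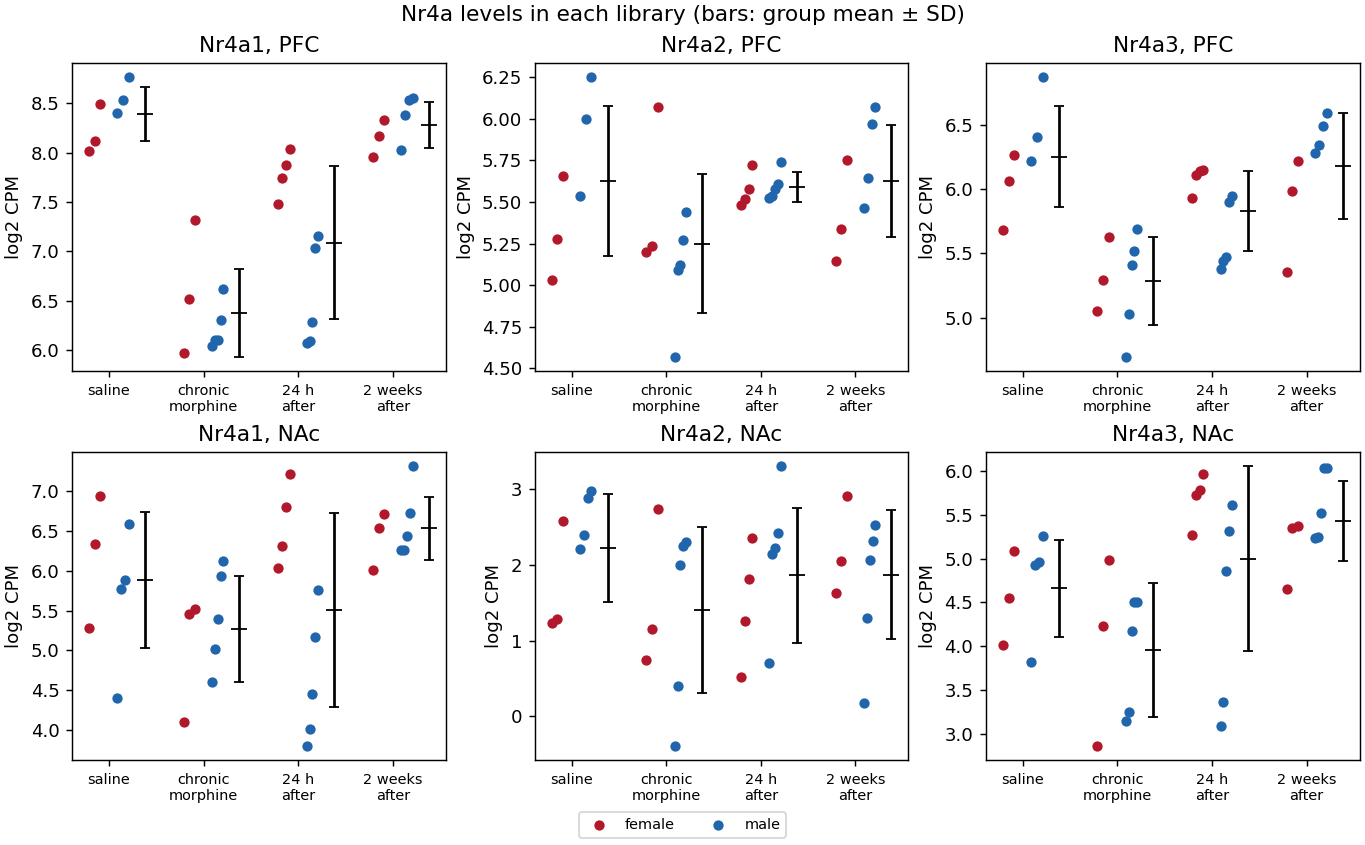
Each point is the log2 CPM of a member in 1 library, by treatment, with females in red and males in blue; the bar is the group mean ± SD, and the vertical axes differ between panels. In the PFC all 8 chronic libraries of Nr4a1 lie below the saline range, and the NAc groups overlap for every member.

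Nr4a3, the member with the greatest merged exon length, also fell under chronic morphine, by less than Nr4a1. In PFC it was at 5.68, 6.24 and 6.87 log2 CPM in saline (lowest, median, highest), 4.69, 5.35 and 5.69 under chronic morphine, 5.38, 5.93 and 6.15 at 24 h, and 5.36, 6.29 and 6.60 at 2 weeks. The highest chronic library just reached the lowest saline library, and the other chronic libraries lay below it. The lowest 2-week value belongs to number 10, the library with few counts. The log2 fold change was -0.95 (95% interval -1.26 to -0.63, edgeR adjusted p = 0.000972) under chronic morphine. At 24 h it was -0.40 (-0.71 to -0.10), with an unadjusted p of 0.0106 and an edgeR adjusted p of 1. At 2 weeks it was -0.10 (-0.42 to 0.22). From chronic morphine to 2 weeks Nr4a3 rose by 0.85 ± 0.15 (edgeR adjusted p = 0.00161), and without number 10 by 0.94 (adjusted p = 0.000183).

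Nr4a2 showed the widest overlap of groups. In PFC its lowest, median and highest libraries were at 5.03, 5.60 and 6.25 log2 CPM in saline, 4.57, 5.22 and 6.07 under chronic morphine, 5.48, 5.58 and 5.74 at 24 h, and 5.15, 5.65 and 6.07 at 2 weeks. The 24 h libraries were the most alike, with an SD of 0.09 against 0.45 in saline. The log2 fold change was -0.30 (95% interval -0.62 to 0.01, edgeR adjusted p = 0.654) under chronic morphine, -0.06 (-0.36 to 0.24) at 24 h and -0.02 (-0.35 to 0.30) at 2 weeks. With 2 surrogate variables in the model, the chronic value was -0.54 and passed (adjusted p = 0.0179).

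Against the libraries that stand apart, the PFC calls were computed again. Without number 27 the chronic log2 fold change was -1.88 for Nr4a1 and -0.94 for Nr4a3, and without number 10 it was -1.91 and -0.94. All 4 values passed by edgeR. With the state of Gm10263 as a covariate, a model chosen after the data had been seen, it was -2.09 ± 0.26 (edgeR adjusted p = 1.58e-05) and -1.06 ± 0.20 (adjusted p = 0.0063). With that state the rise from 24 h to 2 weeks in Nr4a1 (1.35, adjusted p = 0.102) and from chronic morphine to 2 weeks in Nr4a3 (1.10, adjusted p = 0.0898) no longer passed by edgeR. Among PFC libraries the summed CPM of 6 cortical projection neuron markers ran from 2312 to 3156 in saline and 1729 to 3958 under chronic morphine, with none of them at 0. The summed CPM of 4 astrocyte markers ran from 778 to 1041 and from 692 to 850. Deviations of Nr4a1 from the mean of each treatment and sex correlated with the cortical score at r = 0.41 and rho = 0.25 over 30 libraries (permutation p = 0.02 and 0.2, adjusted 0.0706 and 0.51 over 24 relations), and at r = 0.04 without the 2 libraries farthest from the median. Nr4a2 in PFC ran against a score of microglia markers (r = -0.44, rho = -0.48, adjusted permutation p = 0.0512 and 0.0296), and r was -0.51 without the 2 farthest libraries. The part of these markers in the results was not tested.

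**Figure D2:**
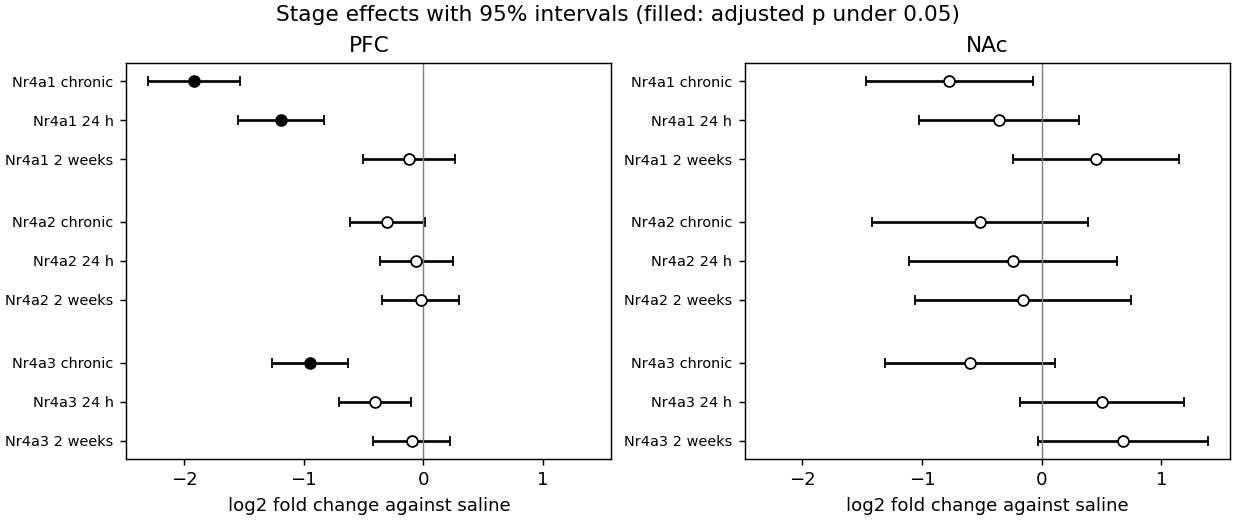
Points are log2 fold changes against saline in each region, averaged over the sexes, with 95% intervals; filled points have an adjusted p under 0.05. Nr4a1 under chronic morphine and at 24 h and Nr4a3 under chronic morphine, all in the PFC, are the filled points, and the NAc intervals are wider.

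Whether the members changed by the same factor was tested on the ratio of their counts within each library, which does not depend on library size. These 18 tests (3 ratios, 3 stages, 2 regions) were chosen after the data had been seen. In PFC the log2 ratio of Nr4a1 to Nr4a2 was 2.76 ± 0.27 (SD, n = 6) in saline and 1.12 ± 0.62 (n = 8) under chronic morphine, and the ranges did not overlap (2.41 to 3.09 against -0.10 to 2.08). The 2-sided exact permutation p was 0.000333 (0.003 adjusted over the 18 tests). The ratio of Nr4a1 to Nr4a3 went from 2.14 ± 0.20 to 1.09 ± 0.33, also without overlap (exact permutation p = 0.000333, adjusted 0.003). The ratio of Nr4a3 to Nr4a2 went from 0.63 ± 0.22 to 0.04 ± 0.46, with overlap (exact permutation p = 0.00533, adjusted 0.0192). All 3 ratios passed, so the 3 members did not change by the same factor.

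At 24 h in PFC the ratio of Nr4a1 to Nr4a2 was lower than in saline by 1.26 on the log2 scale (stage minus saline -1.26, exact permutation adjusted p = 0.018). The ratio of Nr4a1 to Nr4a3 differed by -0.88 (exact permutation adjusted p = 0.0144), and that of Nr4a3 to Nr4a2 by -0.38 (exact permutation adjusted p = 0.0915). At 2 weeks the differences were -0.11, -0.04 and -0.07, all smaller than the SD of the saline libraries. In the NAc the 2 ratios with Nr4a2 spread far more, with an SD of up to 1.87, while the SD of Nr4a1 to Nr4a3 ran from 0.23 to 0.59 against 0.20 to 0.50 in PFC. None of the 9 had an adjusted p under 0.05 by the exact permutation test (1 had an unadjusted p under 0.05: Nr4a1 to Nr4a3 at 24 h, -0.72, exact p = 0.0219).

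**Figure D3:**
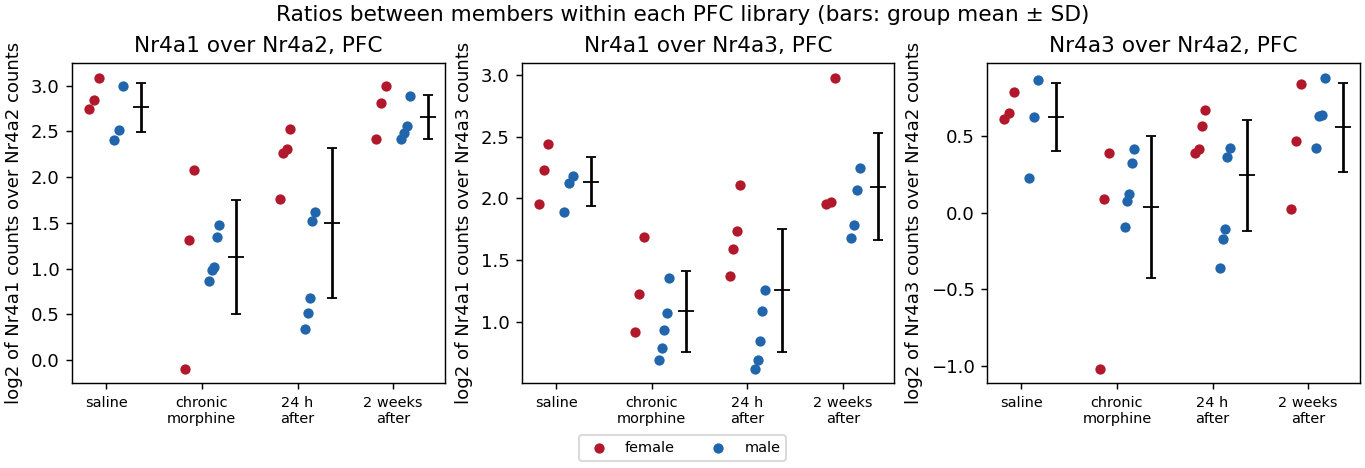
Each point is the log2 ratio of the counts of 2 members in 1 PFC library, by treatment and sex; the bar is the group mean ± SD. Nr4a1 falls relative to both other members under chronic morphine, from 2.76 to 1.12 against Nr4a2 and from 2.14 to 1.09 against Nr4a3.

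The sexes were then compared, since the title of the series asks about sex. In PFC under chronic morphine Nr4a1 fell in males by 2.32 ± 0.24 on the log2 scale (edgeR adjusted p = 1.09e-06, where 0.173% of genes passed in males). In females the log2 fold change was -1.51 ± 0.28 (adjusted p = 0.0129, where 0.184% passed). The female call rests on 3 libraries a group, 1 of them number 27 with its male markers, and did not pass by edgeR without number 27 (-1.43, adjusted p = 0.0872), with number 27 taken as male (-1.42, adjusted p = 0.0869), without chronic number 25 (-1.25, adjusted p = 0.147) or without saline number 3 (-1.36, adjusted p = 0.105). The male comparison lies within 1 state of Gm10263. The difference between the sexes, male minus female, was -0.81 (95% interval -1.56 to -0.06, edgeR adjusted p = 1, where 0% of genes passed), and -0.38 without chronic number 26. Nr4a3 fell in males (-1.22 ± 0.20, edgeR adjusted p = 0.00146, but -1.01 and 0.0659 without saline number 6) and was at -0.67 ± 0.23 in females (adjusted p = 0.532), a difference of -0.54 (-1.17 to 0.09) that did not pass and was -0.32 without saline number 6. Nr4a2 was at -0.83 ± 0.20 in males (edgeR adjusted p = 0.126, 0.0374 without the female number 25, and 0.0387 by DESeq2) and 0.23 ± 0.23 in females, a difference of -1.06 (-1.68 to -0.43, unadjusted p = 0.00168, adjusted p = 0.664 by edgeR).

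At 24 h in PFC the males and females of Nr4a1 did not overlap. The 4 females were at 7.48, 7.74, 7.88 and 8.04 log2 CPM. The 5 males were at 6.08, 6.09, 6.28, 7.04 and 7.16. The 2 highest males are numbers 16 and 17, which are also the 2 males with Gm10263 off, and the 4 females had it on; its part in the result was not tested. The log2 fold change against saline was -1.96 ± 0.24 in males (edgeR adjusted p = 1.56e-05, where 0.1% of genes passed) and -0.42 ± 0.25 in females (adjusted p = 1, where 0.0334% passed). The difference, -1.54 (95% interval -2.27 to -0.82), had an unadjusted p of 0.000167 and an edgeR adjusted p of 0.187, where 0.0111% of genes passed. DESeq2 gave it an adjusted p of 0.0314, and edgeR without number 16 one of 0.0479, so whether it passes depends on the tool and on 1 library. Nr4a3 at 24 h was at -0.88 ± 0.20 in males (edgeR adjusted p = 0.125) and 0.07 ± 0.22 in females. That difference was -0.95 (95% interval -1.56 to -0.34, unadjusted p = 0.00344, edgeR adjusted p = 0.997). For Nr4a2 the difference was -0.60 (-1.20 to 0.0066).

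In the NAc the same 3 genes had wider spreads, and edgeR passed no member against saline at any stage. Of the 9 tests 1 had an unadjusted p under 0.05, and DESeq2 passed none either. Nr4a1 was at 4.40, 5.89 and 6.94 log2 CPM in saline (lowest, median, highest), 4.10, 5.42 and 6.12 under chronic morphine, 3.80, 5.76 and 7.22 at 24 h, and 6.01, 6.48 and 7.32 at 2 weeks. The chronic libraries lay within or just below the saline range, and the 24 h libraries spanned both ends of it. The chronic log2 fold change was -0.77 (95% interval -1.47 to -0.07, unadjusted p = 0.0317, edgeR adjusted p = 0.272, where 1.69% of 18382 genes passed). It was -0.36 (-1.02 to 0.31) at 24 h, where 0.163% passed, and ran from -0.54 (without 24 h number 17) to -0.14 (without saline number 3) with 1 library left out. It was 0.45 (-0.24 to 1.15) at 2 weeks, where 0.00544% passed.

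At 24 h the NAc males and females of Nr4a1 did not overlap either. The 4 females were at 6.04, 6.32, 6.80 and 7.22 log2 CPM, and the 5 males at 3.80, 4.02, 4.45, 5.17 and 5.76. These libraries carry the same numbers as the PFC libraries at 24 h. The 2 highest males are again numbers 16 and 17, with Gm10263 off, and the 4 females had it on. The part of that state was not tested. The difference of the effect, male minus female, was -1.35 (95% interval -2.70 to 0.00032, unadjusted p = 0.0501, edgeR adjusted p = 0.783, where 0.087% of genes passed). A score of striatal markers, described below, was at 7.92 to 8.94 in these females and 6.09 to 8.16 in these males. With that score as a covariate the difference was -0.98 ± 0.36 (edgeR adjusted p = 0.453).

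Nr4a3 in the NAc was at 3.82, 4.93 and 5.25 log2 CPM in saline, 2.86, 4.20 and 4.98 under chronic morphine, 3.09, 5.31 and 5.96 at 24 h, and 4.65, 5.36 and 6.03 at 2 weeks. Of the 8 libraries at 2 weeks, 7 lay above every chronic library, and the 24 h group again held the widest range. Its log2 fold changes against saline were -0.60 (95% interval -1.31 to 0.11), 0.50 (-0.18 to 1.19) and 0.68 (-0.03 to 1.39) in the order of the stages. From chronic morphine to 2 weeks, where 1.89% of genes passed, the step was 1.27 ± 0.34 for Nr4a3 (edgeR adjusted p = 0.0504) and 1.23 ± 0.34 for Nr4a1 (adjusted p = 0.0562). DESeq2 passed both steps, with adjusted p of 0.0136 and 0.015. By edgeR both passed in some fits with 1 library left out (Nr4a1 without saline 2 or 6, 24 h 17 or chronic 30; Nr4a3 without saline 6, 24 h 17, 22 or 23, or chronic 27 or 32).

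Nr4a2 was scarce in the NAc, at 1.24, 2.39 and 2.97 log2 CPM in saline, -0.40, 1.58 and 2.74 under chronic morphine, 0.52, 2.15 and 3.30 at 24 h, and 0.18, 2.06 and 2.91 at 2 weeks. All 4 groups overlapped. Its log2 fold changes were -0.52 (95% interval -1.42 to 0.39), -0.24 (-1.11 to 0.63) and -0.16 (-1.06 to 0.75).

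The NAc punches differed in how much striatal tissue marker they held, and all 3 members moved with it. A score, the mean log2 CPM of 7 markers of striatal projection neurons (Drd1, Drd2, Adora2a, Ppp1r1b, Rgs9, Penk and Tac1), ran from 4.72 to 8.44 in saline, 4.93 to 9.11 under chronic morphine, 6.09 to 8.94 at 24 h and 7.35 to 8.78 at 2 weeks. None of these markers was at 0 in any NAc library. The summed CPM of 6 cortical projection neuron markers ran from 6.54 to 747 across NAc libraries, against 1729 to 3958 in PFC.

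Across the 32 NAc libraries, as deviations from the mean of each treatment and sex, Nr4a1 correlated with the score at Pearson r = 0.86 and Spearman rho = 0.84. Nr4a3 correlated at r = 0.81 and rho = 0.79, and Nr4a2 ran the other way, at r = -0.64 and rho = -0.68. The permutation p was 1e-05 for both coefficients of Nr4a1 and Nr4a3, the smallest that 100000 resamples can give, and 0.0001 and 2e-05 for Nr4a2. Adjusted over 24 relations, these are 0.00012 for Nr4a1 and Nr4a3, and 0.0008 and 0.00016 for Nr4a2 (permutation). Without the 2 libraries farthest from the median score, r was 0.84, 0.78 and -0.66 for Nr4a1, Nr4a3 and Nr4a2. Both measures come from the same libraries, so they share depth and composition. Nr4a2 in the NAc also ran with a score of claustrum and layer 6b markers, of which 7 of the 8 listed were in the table (r = 0.56, rho = 0.55, permutation p = 0.0008 and 0.001, adjusted 0.00486 and 0.00768). Nr4a3 ran against that score (r = -0.53, rho = -0.50, adjusted permutation p = 0.00936 and 0.0203), and so did Nr4a1 (r = -0.45, rho = -0.40, adjusted permutation p = 0.0388 and 0.0871).

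With the striatal score as a covariate, a model chosen after the data had been seen, the NAc chronic log2 fold change was -0.99 ± 0.19 for Nr4a1 (edgeR adjusted p = 0.00339) and -0.96 ± 0.22 for Nr4a3 (adjusted p = 0.0149), and both passed. In place of the score, 2 surrogate variables gave -1.08 ± 0.21 (edgeR adjusted p = 0.00435) and -1.02 ± 0.21 (adjusted p = 0.00724). They were estimated over all genes kept by the low-count filter, without leaving these markers out, so they are not independent of the score. With the score, the steps from chronic morphine to 2 weeks were 1.20 for Nr4a1 (adjusted p = 0.000247) and 1.33 for Nr4a3 (adjusted p = 0.000376). Nr4a2 did not pass with either (-0.39 and -0.37). The score is itself a measure of RNA in these mice, and whether morphine moved it was not tested.

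**Figure D4:**
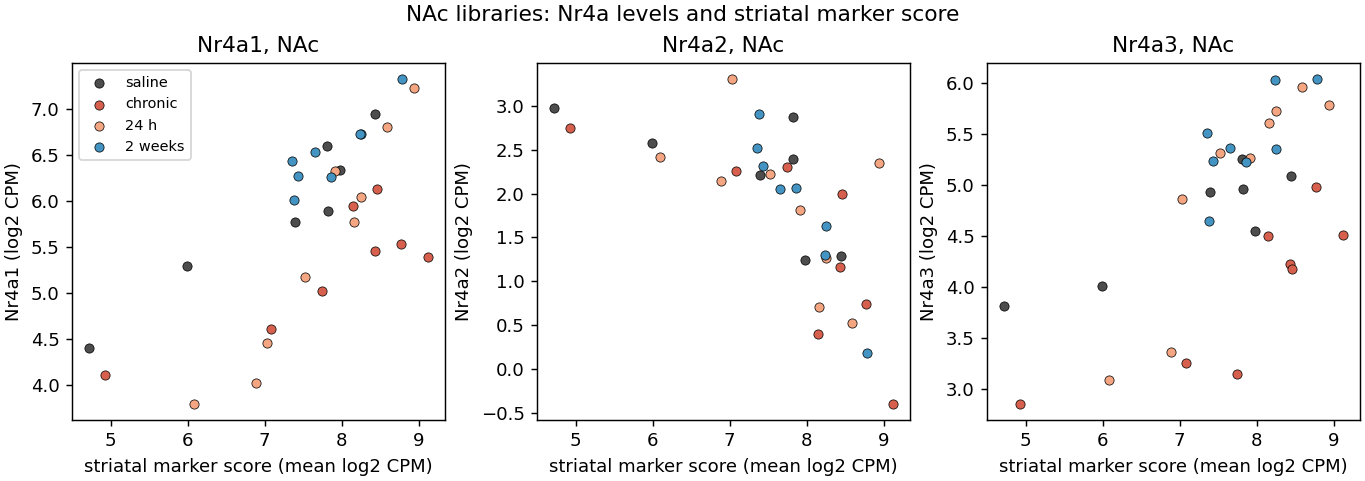
Each point is 1 NAc library, with the striatal marker score (mean log2 CPM of 7 markers) on the horizontal axis, the level of a member on the vertical axis, and colour for treatment. Nr4a1 and Nr4a3 rise with the score and Nr4a2 falls, and at a like score the chronic libraries (red) lie low for Nr4a1 and Nr4a3. Some 24 h libraries lie as low for Nr4a1, such as number 24 (score 7.03, level 4.45) beside chronic number 29 (7.09 and 4.61).

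Whether the effect of morphine differed between the regions was tested itself. For Nr4a1 the NAc minus PFC difference of the chronic effect was 1.16 (95% interval 0.35 to 1.98), with an unadjusted p of 0.00593 and an edgeR adjusted p of 1, where 0.0311% of 19266 genes passed. For Nr4a3 it was 0.37 (-0.42 to 1.16), or 0.060 without number 27, 0.13 without number 6 and 0.22 without number 2, and for Nr4a2 -0.20 (-1.13 to 0.73). At 24 h it was 0.85 (0.07 to 1.63) for Nr4a1 and 0.92 (0.16 to 1.68) for Nr4a3, neither of which passed after adjustment (edgeR adjusted p = 1 for both, where 0.0208% passed). The fall of Nr4a1 and Nr4a3 in PFC is thus not shown to be particular to that region.

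Most of the other early genes measured in the PFC fell as well. Of 13 other early transcription factors, 8 fell and 0 rose under chronic morphine, where 0.312% of all genes passed as lower, with a median log2 fold change of -1.26 against 0.01 over all genes tested. The 3 with the smallest p were Fos, a partner of Jun proteins in AP-1 (-2.17 ± 0.19, edgeR adjusted p = 7.25e-08), Egr2, a zinc-finger factor (-3.35 ± 0.33, adjusted p = 2.12e-07), and Junb, an AP-1 subunit (-1.87 ± 0.20, adjusted p = 1.11e-06). Of 12 other early CREB targets that do not bind DNA, 7 fell and 0 rose (median -0.94), against the same 0.312%. They included Trib1, a pseudokinase (-1.49 ± 0.14, edgeR adjusted p = 7.25e-08), Arc, which acts in receptor endocytosis at synapses (-2.23 ± 0.23, adjusted p = 4.16e-07), and Dusp1, a phosphatase of MAP kinases (-1.68 ± 0.18, adjusted p = 1.22e-06). Not every early gene did so: Egr3 was at 0.16 ± 0.23, Nptx2 at 0.58 ± 0.19 and Bdnf at -0.04 ± 0.11, values chosen for mention after they were seen. Without number 10 the early factors that fell numbered 10, and without number 27 they numbered 7. With the state of Gm10263 in the model they numbered 8. The CREB targets numbered 7, 7 and 6 in that order. Over all genes 165, 59 and 36 passed in these fits, in either direction, against 75 in the main fit.

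At 24 h in PFC, where 0.0724% of genes passed as lower, 4 of the 13 factors fell (median -0.68), among them Fos (-1.37), Ier2, a short-lived early protein (-1.39), and Junb (-1.26). Of the 12 other targets 5 fell (median -0.53), among them Btg2, an antiproliferative factor (-1.19), Dusp1 (-1.38) and Arc (-1.64). At 2 weeks, where 0.00557% of all genes passed, edgeR passed none of either list. In each list 1 gene had an unadjusted p under 0.05, and the medians were -0.08 and -0.06.

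Upstream of the family, most regulators did not pass. Of 22 CREB and MEF2 regulators, 1 rose in PFC under chronic morphine: Hdac4, a deacetylase that represses MEF2 (0.60 ± 0.13, edgeR adjusted p = 0.0287, where 0.106% of genes passed as higher). With the state of Gm10263 in the model Hdac4 did not pass. Among them Creb1 itself was at 0.21 ± 0.11 and Mef2d at 0.29 ± 0.12, neither of which passed, and both were chosen for mention after their values were seen. Of 12 retinoid X receptors and co-regulators edgeR passed none in PFC under chronic morphine, where 2 had an unadjusted p under 0.05. Downstream, of 9 tested genes described as Nr4a targets, such as Th and Vip, edgeR passed none and 0 had an unadjusted p under 0.05 (median -0.01). Several were measured with little precision: the SE was 1.08 for Slc18a2, 0.44 for Pomc, 0.43 for Cartpt, 0.41 for Th and 0.38 for Ret. A fall of the size seen in Nr4a3 could be missed in these. For Bdnf, Vip, Ddc and Spp1 the SE was 0.11 to 0.27. Near the upper end of these SEs such a fall could be missed too. In the same comparison Fosb, at -0.85 ± 0.23, did not pass (edgeR adjusted p = 0.125).

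In the NAc under chronic morphine, where 0.898% of genes passed as lower and 0.789% as higher, 2 of the 13 early factors fell, Fos (-1.15 ± 0.19, edgeR adjusted p = 0.00217) and Atf3, a stress-induced factor (-1.20 ± 0.30, adjusted p = 0.0367). Of the 12 other early targets 2 fell, Sik1, a kinase that restrains CREB coactivators (-0.58 ± 0.11, edgeR adjusted p = 0.00484), and Btg2 (-0.56 ± 0.13, adjusted p = 0.02). Ncoa2, a coactivator of nuclear receptors, rose by 0.33 ± 0.08 (edgeR adjusted p = 0.0354). Without number 27, and likewise with the state of Gm10263 in the model, 1 early factor and 1 other target fell and no co-regulator passed by edgeR. Over all genes 117 and 36 passed in these fits, in either direction, against 310 in the main fit. With the striatal score in the model 8 of the 13 factors fell (median -0.71 against -0.43 without it). The genes that passed over the whole table rose with it too, from 310 to 674 in either direction.

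**Figure D5:**
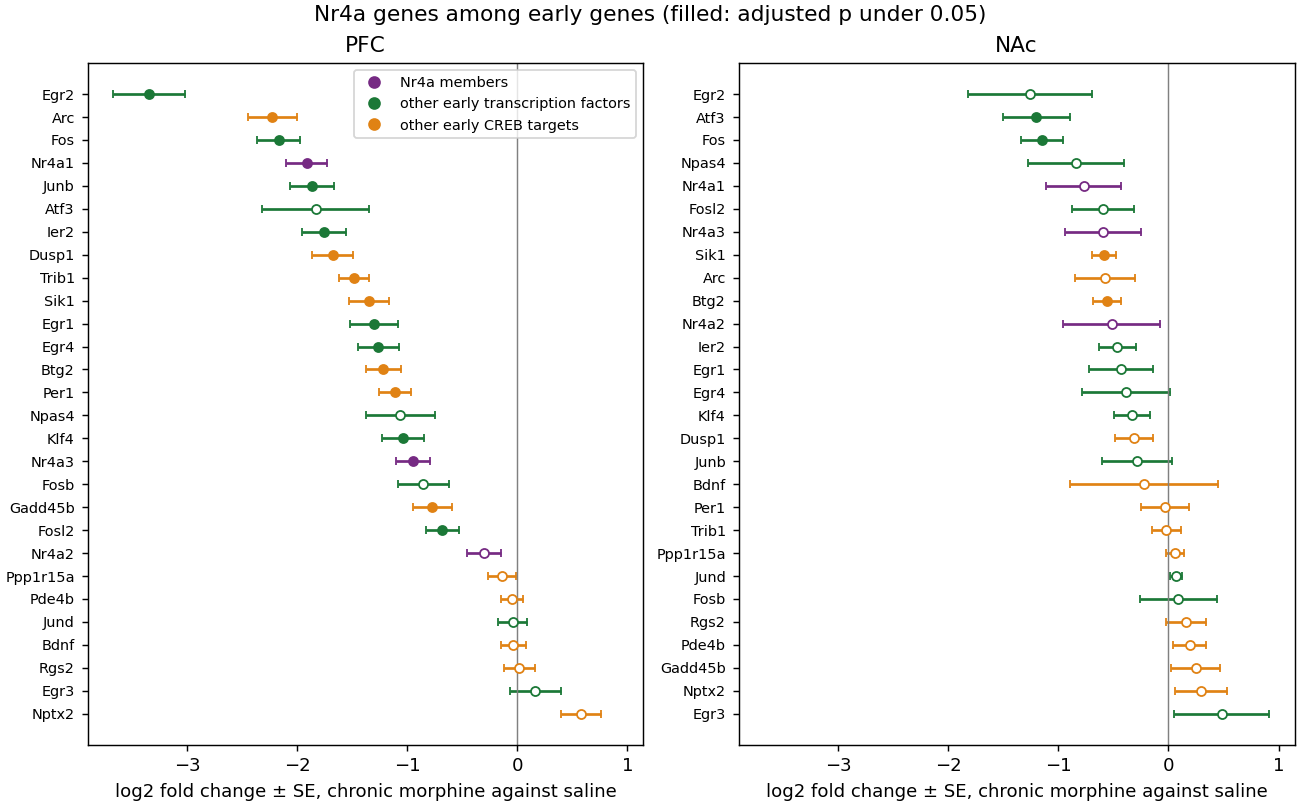
Log2 fold change ± SE of the Nr4a members and 25 other early genes under chronic morphine against saline, ordered within each region, with filled points for an adjusted p under 0.05. In the PFC Nr4a1 lies among the genes that fell most, Nr4a3 among those that fell less, and Nr4a2 near 0.

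Across libraries, the members had different neighbours. As a description, Pearson r was taken over log2 CPM deviations from the mean of each treatment and sex, among 12804 genes in 30 PFC libraries and 13173 genes in 32 NAc libraries. In PFC Nr4a1 varied most like Egr2 (r = 0.90), Arc (0.88) and Junb (0.82). Nr4a3 varied most like Polr1b (0.76), D130043K22Rik (0.75) and Bhlhe40 (0.75), and Nr4a2 like Mdga1 (0.78), Slc24a3 (0.76) and Grb10 (0.75). Over levels instead of deviations, r with these genes was 0.29, 0.45 and 0.86 for Nr4a3, and 0.40, 0.50 and 0.51 for Nr4a2. The PFC values include number 10, the library with few counts, whose part in them was not tested. In the NAc Nr4a1 ran with Egr4, Egr1 and Fosb (0.94, 0.93 and 0.93), Nr4a3 with Fosb, Peli1 and Gria2 (0.96, 0.95 and 0.94), and Nr4a2 with Sstr3, Tmem25 and Dcbld2 (0.90, 0.88 and 0.88). Between members, Nr4a1 and Nr4a3 gave r = 0.56 in PFC and 0.86 in NAc. Nr4a2 gave -0.04 with Nr4a1 and 0.38 with Nr4a3 in PFC, and -0.56 and -0.62 in NAc. The NAc values share the spread of the striatal score described above.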

How the data were processed

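The mouse values are raw read counts per gene, deposited by the authors as 1 table of whole numbers. The submitters' processing notes name FastQC, cutadapt, Trimmomatic, STAR, HISAT2, RSEM and the build GRCm38, without saying which made this table. Rows of reads given to no gene (median 22.0% of reads) and 2 reporter rows stayed out of library sizes and tests. Symbols were matched for 45143 of 46078 identifiers.

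PFC and NAc had separate models in edgeR 4.0.16, run in R 4.3.3, with TMM scaling, filterByExpr, and a quasi-likelihood test on the means of treatment by sex, averaged over the sexes. Regions were compared in 1 fit over all 62 libraries. A gene passes at a Benjamini-Hochberg adjusted p under 0.05 over all genes tested. Log2 CPM used a prior count of 2. The test was checked on simulated counts. Exact permutation tests were used for ratios and 100000 resamples for correlations.

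The members and gene lists were chosen with earlier results of these data known. Named list genes are up to 3 with the smallest p per list and comparison, and for likeness the 3 with the highest r at a mean log2 CPM of at least 1. Alternatives were median-of-ratios scaling, testing without a low-count filter, DESeq2 1.42.0, no sex term, 2 surrogate variables (sva 3.50.0), a replicate block, and leaving out each library (for comparisons between regions, every library of a number together). The striatal score, the Gm10263 state, number 27 taken as male, the list counts under these settings, the alternatives for the PFC results by sex, the counts of all genes with 1 library left out, the ratios and the marker correlations were added after the data had been seen. Gene positions and lengths come from GENCODE M21, which may not be the annotation used for counting. One marker listed for the striatal score is not reported here and was left out of it.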

Additional observations from a re-analysis of the deposited data

How the results depend on the processing

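In the fits that left out 1 library, the 6 PFC results averaged over the sexes that passed (Nr4a1 chronic, 24 h and the 2 steps to 2 weeks, Nr4a3 chronic and chronic to 2 weeks) passed every time. So did Nr4a1 in PFC males under chronic morphine and at 24 h. The 3 saline region differences passed in all 7 fits that left out every library of 1 saline number. With no sex term Nr4a1 at 24 h in PFC was -1.14 (adjusted p = 0.0505). DESeq2 passed 5 results that edgeR did not: Nr4a2 in chronic PFC males (-0.83), Nr4a1 in PFC from chronic to 24 h (0.72), its 24 h sex difference (-1.49), and the NAc steps from chronic to 2 weeks of Nr4a1 (1.22) and Nr4a3 (1.26). With 2 surrogate variables Nr4a2 in PFC (-0.54) and Nr4a1 (-1.08) and Nr4a3 (-1.02) in NAc passed under chronic morphine, and Nr4a2 in NAc at 24 h turned to 0.26. With the striatal score the NAc results that newly passed were chronic Nr4a1 (-0.99) and Nr4a3 (-0.96), chronic to 24 h in Nr4a3 (1.14), 24 h to 2 weeks in Nr4a1 (0.83), and chronic to 2 weeks in both (1.20 and 1.33). Nr4a2 turned to 0.10 at 24 h and 0.15 at 2 weeks, and the Nr4a3 sex difference at 2 weeks to -0.077. With the Gm10263 state Nr4a1 from 24 h to 2 weeks (1.35) and Nr4a3 from chronic to 2 weeks (1.10) lost their calls in PFC, and the 2-week values turned to 0.084, 0.16 and 0.043 for Nr4a1, Nr4a2 and Nr4a3 in PFC and 0.11 for Nr4a2 in NAc. With number 27 taken as male Nr4a1 in chronic PFC females lost its call (-1.42), and the Nr4a3 chronic sex difference in NAc was 0.33. The causes were not tested.

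Leaving out 1 library, the results that crossed the threshold or 0 ranged as follows. In PFC, Nr4a1 from chronic to 24 h ranged from 0.59 to 0.94 and its 24 h sex difference from -1.71 to -1.42. Chronic Nr4a1 in females ranged from -1.95 to -1.25 and lost its call without chronic 25, chronic 27 or saline 3. Chronic Nr4a3 in males ranged from -1.35 to -1.01 and lost its call without saline 6. Chronic Nr4a2 ranged from -1.01 to -0.66 in males, passing without chronic 25, and from -0.12 to 0.41 in females. Nr4a2 ranged from -0.15 to 0.033 at 24 h, -0.12 to 0.067 at 2 weeks and -0.059 to 0.10 between them. Nr4a3 ranged from -0.20 to 0.0040 at 2 weeks, with a sex difference of -0.16 to 0.24. In NAc, chronic to 2 weeks ranged from 1.05 to 1.33 for Nr4a1 and 1.07 to 1.54 for Nr4a3. Nr4a2 there ranged from -0.42 to 0.066 at 24 h, -0.38 to 0.15 at 2 weeks and -0.15 to 0.26 between them, with a 24 h sex difference of -0.64 to 0.29. The Nr4a3 sex difference ranged from -0.026 to 0.50 at 2 weeks and -0.83 to 0.12 under chronic morphine. In fits that left out every library of 1 number, the NAc minus PFC difference of Nr4a2 ranged as follows. It ran from -0.48 to 0.10 under chronic morphine, -0.37 to 0.15 at 24 h and -0.33 to 0.19 at 2 weeks.

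Deviations of same-numbered PFC and NAc libraries correlated at 0.01 to 0.22 (median 0.07), with 5 of 30 pairs over 0.1. Among the 7 to 9 NAc libraries of the same treatment, 20 of 30 PFC libraries correlated best with that of their own number. With the replicate block the saline NAc minus PFC values were -2.48, -3.51 and -1.62 for Nr4a1, Nr4a2 and Nr4a3, and no call changed. Over all genes, the number that passed moved by more than 1.5 times under these settings. PFC chronic went from 75 to 173 (DESeq2) and 36 (state). PFC at 24 h went from 14 to 46 (DESeq2) and 38 (surrogate variables). PFC at 2 weeks went from 1 to 5 (DESeq2), 2 (state) and 0 (no filter, no sex term, surrogate variables). NAc chronic went from 310 to 200 (no filter), 691 (DESeq2), 167 (no sex term), 758 (surrogate variables), 36 (state), 206 (number 27 as male) and 674 (striatal score). NAc at 24 h went from 30 to 11, 132, 182, 12 and 81 (no filter, DESeq2, surrogate variables, state, striatal score), and NAc at 2 weeks from 1 to 30, 11, 8, 15 and 6 (DESeq2, no sex term, surrogate variables, state, striatal score). With 1 library left out, PFC chronic went to 165 without number 10, 44 without saline 1 or 6, 47 without saline 3 and 49 without chronic 28, PFC at 24 h to 28 without number 10, and PFC at 2 weeks to 0 without 2-week 8 or 9. NAc chronic went to 561 without chronic 25, 117 without number 27, and 139, 206 and 188 without saline 1, 2 and 6. NAc at 24 h fell to between 3 and 15 without 24 h 18, 19 or 21 or saline 1, 2, 3, 4, 6 or 7, and NAc at 2 weeks ranged from 1 to 4. In saline NAc the median count was 185 for Nr4a2 and 2217 for Nr4a1. The SE of the chronic effect there was 0.44 for Nr4a2 and 0.34 for Nr4a1. The part of low counts in the spread of Nr4a2 was not tested.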
